A study of Homo sapiens with 8 samples.

Results

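The genes described here are the sugar and monocarboxylate carriers of 3 solute carrier families: SLC2 (the GLUT facilitators), SLC5 (the sodium-coupled carriers) and SLC16 (the monocarboxylate or MCT carriers). Members were taken by name, as every protein-coding gene of the deposited table whose symbol is SLC2A, SLC5A or SLC16A followed by a number. This gave 38 of 30386 genes, with 13 in SLC2, 11 in SLC5 and 14 in SLC16. They were measured by RNA sequencing in 2 groups of endothelial cells made from WTC-TJP1, a human line of induced pluripotent stem cells, at passage 1. The group iEC holds 4 samples of induced endothelial cells and the group iREC holds 4 samples of induced retinal endothelial cells. Samples carry the letters C, D, E and F in both groups. All cells come from a single line, and the labels do not say whether the letters are separate differentiations, so p-values measure the spread between these samples, which may be technical.

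Glucose enters cells down its gradient through SLC2 proteins or against it, with sodium, through some SLC5 proteins. Lactate, pyruvate and ketone bodies cross membranes with a proton through the best-known SLC16 proteins, which need a chaperone, basigin or embigin, to reach the cell surface. In brain and retinal capillaries the endothelium is sealed, so that glucose reaches the tissue through SLC2A1 and monocarboxylates pass through SLC16A1. Both proteins are widely used as features of barrier endothelium.

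Totals ran from 13739364 to 16971865 counts per library, and the carriers took 0.0766% to 0.0884% of them. The floor of detection was set at 3 counts, or 0.178 to 0.215 CPM (read counts scaled to library size by the TMM method, a trimmed mean of ratios between libraries). Replicates of a group differed by more than counting noise in each pair (chi-square per degree of freedom of at least 16.7). The library iREC F stood apart within its group. Its 12 endothelial markers summed to 5266 CPM, against 8994 to 11219 CPM in the other iREC libraries. Its 13 mural and mesenchymal markers summed to 4485 CPM against 618 to 1248 CPM, and its 8 epithelial markers to 4927 CPM against 307 to 1122 CPM. In the iEC libraries these sums were 8513 to 11811, 234 to 489 and 421 to 1227 CPM. The highest mural and mesenchymal sum and the highest epithelial sum of iEC were also in the library lettered F. The endothelial sum of iEC F, 9825 CPM, was not the lowest of its group. The 6 pluripotent markers summed to 505 CPM in iREC F, against 53.3 to 173 CPM in the other iREC libraries. Their sum was also lower in each iEC library than in iREC F, and at 39.0 CPM was lowest in iEC F. LIN28A alone gave 482 CPM of the sum in iREC F, while DPPA4, at 22.5 CPM, was the lowest of its group there. The mural and epithelial sums may likewise rest on few genes. Between iREC and iEC, 3 of 10 tested mural and mesenchymal markers were called higher and 1 lower. Of 6 tested epithelial markers, 1 was called higher and 1 lower. Over all tested genes, 13.2% were called higher and 11.7% lower. Of the 26 carriers that could be tested, 23 had their highest or lowest iREC value in F, against 14 in C, 5 in D and 10 in E. The share over all tested genes was not computed, so this count says nothing about the carriers in particular. The part of those marker changes in the carrier values was not tested. Values without F are given beside the called carriers and beside other results that it moves. In samples of many cells, fewer cells of a type and less RNA per cell cannot be told apart.

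To show how different the start regions of these genes are, 4 promoter windows are printed, those of SLC2A1, SLC5A3 and SLC16A7, which were higher in iREC, and of SLC2A6, which was lower. Each runs from 250 bases before to 50 bases after a RefSeq start site on GRCh38.p14, 5′ to 3′ on the strand of the gene. Capitals mark GGGCGG or its complement, the GC box bound by factors of the SP family. SLC2A1 lies at chr1:42958819-42959118 on the minus strand, SLC2A6 at chr9:133479050-133479349 on the minus strand, SLC5A3 at chr21:34073328-34073627 on the plus strand and SLC16A7 at chr12:59595779-59596078 on the plus strand.
SLC2A1: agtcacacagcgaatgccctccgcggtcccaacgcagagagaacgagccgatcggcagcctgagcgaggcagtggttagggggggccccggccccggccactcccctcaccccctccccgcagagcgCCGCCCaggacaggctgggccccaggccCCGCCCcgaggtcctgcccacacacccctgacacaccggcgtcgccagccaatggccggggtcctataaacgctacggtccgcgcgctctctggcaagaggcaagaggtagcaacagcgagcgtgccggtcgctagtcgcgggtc
SLC2A6: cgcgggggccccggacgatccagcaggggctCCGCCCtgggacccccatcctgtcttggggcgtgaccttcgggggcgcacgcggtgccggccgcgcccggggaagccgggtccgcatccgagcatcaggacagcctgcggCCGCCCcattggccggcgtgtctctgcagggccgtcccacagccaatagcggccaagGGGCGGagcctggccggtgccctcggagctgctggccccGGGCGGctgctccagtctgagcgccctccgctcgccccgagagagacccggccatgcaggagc
SLC5A3: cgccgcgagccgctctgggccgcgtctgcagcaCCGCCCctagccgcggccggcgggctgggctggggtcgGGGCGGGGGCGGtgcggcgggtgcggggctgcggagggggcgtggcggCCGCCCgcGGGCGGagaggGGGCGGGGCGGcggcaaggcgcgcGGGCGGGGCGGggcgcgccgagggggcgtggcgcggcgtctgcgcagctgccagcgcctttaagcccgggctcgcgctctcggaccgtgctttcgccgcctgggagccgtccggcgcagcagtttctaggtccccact
SLC16A7: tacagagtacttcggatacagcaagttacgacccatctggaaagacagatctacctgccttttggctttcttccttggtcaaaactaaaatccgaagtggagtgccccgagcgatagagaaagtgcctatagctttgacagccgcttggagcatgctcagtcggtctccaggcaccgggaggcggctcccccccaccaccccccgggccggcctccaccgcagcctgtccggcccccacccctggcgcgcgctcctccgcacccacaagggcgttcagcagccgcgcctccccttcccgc

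The GC box, searched on both strands, matched 2 times in the SLC2A1 window, 4 times in SLC2A6 and 9 times in SLC5A3, and had 0 matches in the SLC16A7 window. A second SLC16A7 window, at chr12:59689120-59689419, also had 0. The SLC2A1 window also holds TATAAA, the TATA box, which none of the other 3 printed windows has. Its GC content is 71.0%, against 76.0% for SLC2A6, 82.0% for SLC5A3 and 62.7% for SLC16A7. Of the 38 carriers, 29 had at least 1 window in the RefSeq table, 39 windows in all. The GC box was in 51.3% of these windows and in 45.0% of all 35116, and the TATA box in 12.8% and 11.5%. The letters of the 2 motifs cannot overlap. The start site in use in these cells was not measured.

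The main comparison asked how the carriers differ between iREC and iEC. Of 38 members, 26 passed the filter on low counts and were tested, 10 in SLC2, 4 in SLC5 and 12 in SLC16. Counts were compared by edgeR's quasi-likelihood test, with Benjamini-Hochberg adjustment over all 15330 genes tested and a call at an adjusted p under 0.05. Calls were made for 10 members, 38.5% of those tested, where 25.0% of all tested genes were called. Of these, 6 were higher in iREC, where 13.2% of all tested genes were, and 4 were lower, where 11.7% were. The groups did not overlap for 8 of the 26, and for 29.1% of all tested genes. The median log2 fold change of the tested members was 0.025 and that of all tested genes 0.020. Among all 243 tested genes of the SLC superfamily, which include these, 76 were called, 38 in each direction.

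**Figure D1:**
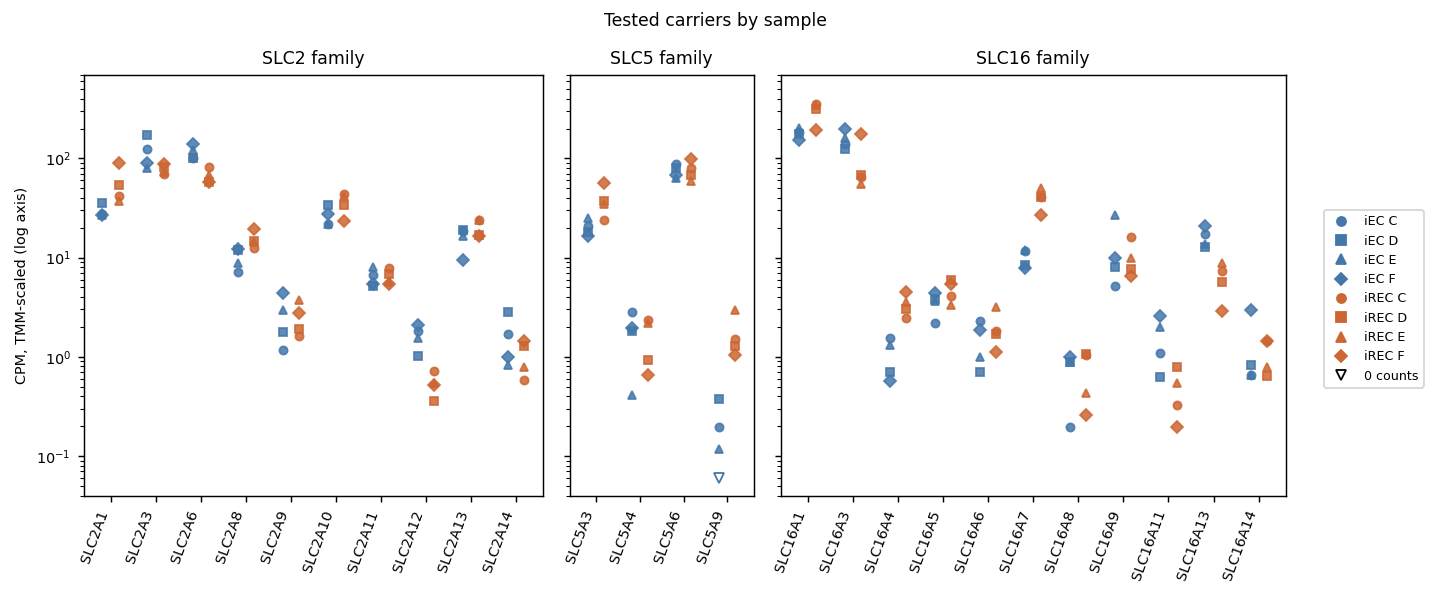
Level of the tested carriers reported here in each sample, in CPM on a log axis, by family; colour gives the group, marker shape the sample letter, and an open triangle at the foot a count of 0. SLC16A1 has the highest values, SLC5A9 is the lowest in iEC, and iREC F (orange diamonds) often lies at an end of its group.

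In the SLC2 family, the glucose carrier of barrier endothelium, SLC2A1, rose, and SLC2A6 and SLC2A12 fell. SLC2A1, or GLUT1 (chromosome 1, 42925375 to 42959176), was at 27.8, 35.8, 27.1 and 26.8 CPM in iEC C to F, and at 41.7, 54.1, 37.2 and 89.0 CPM in iREC C to F. The lowest iREC value lay just above the highest iEC value, and iREC F lay far above the rest of its group. The means were 29.4 ± 4.32 and 55.5 ± 23.5 CPM (SD, n = 4), which differed by 0.92 ± 0.27 on the log2 scale (SE; adjusted p 0.0328 by edgeR). Without iREC F the log2 fold change was 0.59, at an adjusted p of 0.0364 by edgeR. The call was lost without iEC C, E or F or iREC D (adjusted p 0.0714 to 0.0827 by edgeR).

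SLC2A6, or GLUT6 (chromosome 9, 133471095 to 133479137), is found on lysosomes. It measured 101, 99.7, 122 and 141 CPM in iEC C to F and 82.6, 58.5, 68.4 and 58.2 CPM in iREC C to F. Every iREC sample was below every iEC sample. Its log2 fold change was -0.79 ± 0.16 (SE; adjusted p 0.00719 by edgeR), and -0.73 without iREC F. The call held under each of 15 alternatives. SLC2A12, or GLUT12 (chromosome 6, 133988697 to 134052636), was scarce in both groups, with 28, 16, 26 and 29 counts in iEC C to F and 11, 5, 9 and 8 counts in iREC C to F. The groups did not overlap. It fell by 1.56 ± 0.37 on the log2 scale (SE; adjusted p 0.0146 by edgeR), and by 1.55 without iREC F. The call was lost without iREC D (adjusted p 0.0536 by edgeR). Of its exon bases, 38.9% also lie in exons of TBPL1 on the opposite strand, so its counts are uncertain where counting ignored the strand.

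SLC2A3, or GLUT3 (chromosome 12, 7919230 to 7936275), is the high-affinity carrier best known from neurons. It was at 124, 173, 80.8 and 89.5 CPM in iEC C to F and at 69.6, 81.6, 72.8 and 87.8 CPM in iREC C to F. The iEC samples spread widely and overlapped the iREC samples. The log2 fold change of -0.58 ± 0.23 (SE) was not called (adjusted p 0.0944 by edgeR), but without iEC E it was -0.72 and called (adjusted p 0.0474 by edgeR). Its near copy SLC2A14, or GLUT14, had only 9 to 45 counts per sample. Of the 50-base stretches in SLC2A14 transcripts, 16.01% are also in SLC2A3 transcripts, and 15.3% of those of SLC2A3 are in SLC2A14, so reads may have been split between them.

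Of the other tested SLC2 members, none was called, and they are given by their values. SLC2A8, or GLUT8, an intracellular carrier, was at 7.15 to 12.3 CPM in iEC and 12.5 to 19.3 CPM in iREC, without overlap (log2 fold change 0.59 ± 0.23, SE; adjusted p 0.0893 by edgeR). SLC2A10, or GLUT10, whose loss causes arterial tortuosity syndrome, was at 26.2 ± 5.96 and 35.5 ± 9.23 CPM (SD, n = 4). SLC2A13, the proton-coupled myo-inositol carrier, was at 15.8 ± 4.32 and 20.3 ± 4.16 CPM, and SLC2A11 at 6.34 ± 1.36 and 6.44 ± 1.07 CPM. The urate carrier SLC2A9 was at 2.57 ± 1.41 and 2.51 ± 0.938 CPM. The 95% intervals of the difference lay within a 2-fold change for SLC2A10, SLC2A11 and SLC2A13 but not for SLC2A9. The insulin-responsive SLC2A4, the hepatic and islet carrier SLC2A2 and the fructose carrier SLC2A5 had at most 5 counts in any sample and were not tested.

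Levels of different genes were set side by side per kilobase of gene length (RPKM, computed from the counts). The deposited length takes in all annotated exon bases of a gene. The transcripts in use were not measured, so orders between genes, ratios and family shares depend on this length. In iEC the order was SLC2A6 at 32.8 ± 5.50, SLC2A3 at 19.0 ± 6.79, SLC2A1 at 6.22 ± 0.915 and SLC2A10 at 5.24 ± 1.19 RPKM (SD, n = 4). The ranges over samples overlapped between SLC2A1 and SLC2A10 and not between the others. In iREC the order of the means was the same, with SLC2A6 at 18.9 ± 3.25, SLC2A3 at 12.7 ± 1.35 and SLC2A1 at 11.7 ± 4.97 RPKM. SLC2A10 followed at 7.10 ± 1.85 RPKM. By range, SLC2A1 could not be told from SLC2A3 or from SLC2A10. In iREC F, SLC2A1 at 18.8 RPKM was also above SLC2A6 at 16.4 RPKM. The ratio of SLC2A1 to SLC2A3 in RPKM was 0.293, 0.270, 0.437 and 0.390 in iEC C to F. It was 0.781, 0.865, 0.666 and 1.32 in iREC C to F, so SLC2A1 exceeded SLC2A3 in 1 library, F. The summed SLC2 level was 69.1 ± 6.52 RPKM in iEC and 57.8 ± 3.63 RPKM in iREC, and SLC2A1 made up 7.93% to 9.82% of it in iEC and 14.4% to 30.3% in iREC. The choice of ratios and shares was made with the values in view, so they are descriptions without a test.

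**Figure D2:**
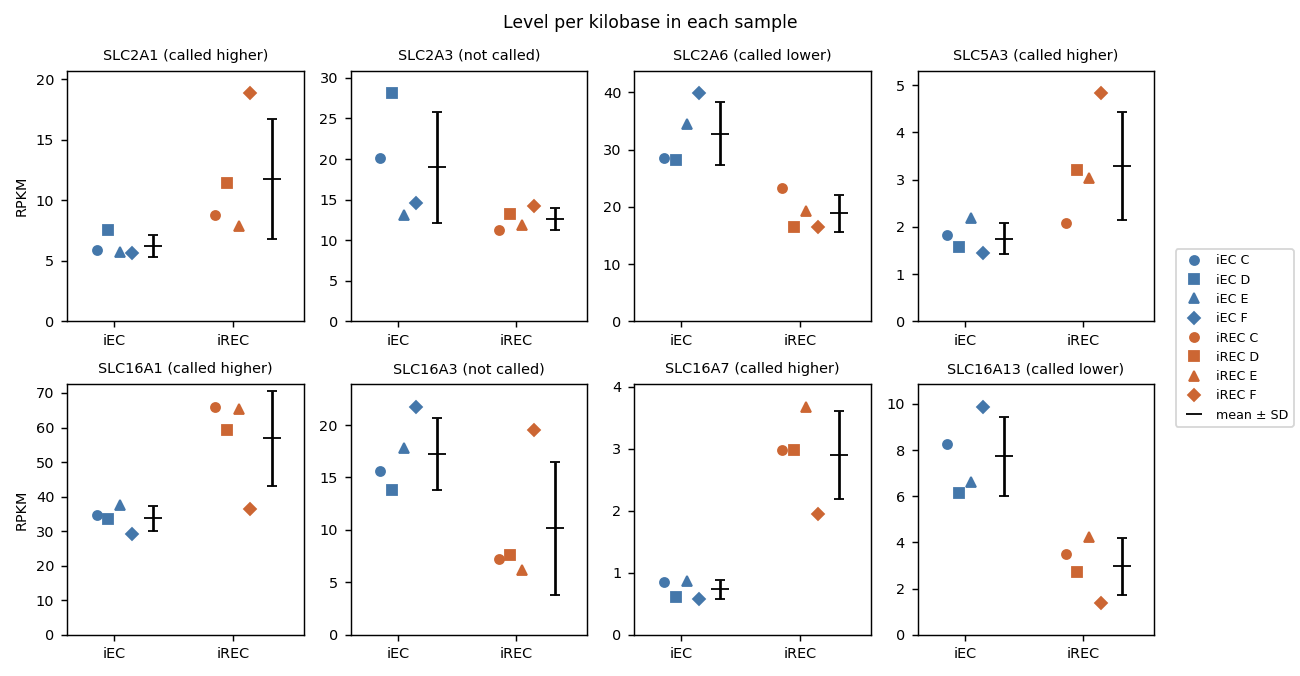
Level per kilobase (RPKM, axes from 0) of 8 carriers in each sample, with the group mean and SD beside the points. SLC2A1, SLC5A3, SLC16A1 and SLC16A7 were called higher in iREC and SLC2A6 and SLC16A13 lower; for SLC16A3 the iREC F point, at 19.6 RPKM, lies among the iEC values.

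In the SLC5 family, the myo-inositol carrier and a low-level sodium-glucose carrier rose, and the vitamin carrier that dominates the family showed no detectable difference. SLC5A3, or SMIT1 (chromosome 21, 34073570 to 34106262), brings in myo-inositol with sodium and is known for its part in osmotic balance. It was at 21.1, 18.1, 25.3 and 16.7 CPM in iEC C to F and at 24.1, 37.2, 35.1 and 55.9 CPM in iREC C to F. Only iREC C, the lowest of its group, fell within the iEC range. The log2 fold change was 0.91 ± 0.25 (SE; adjusted p 0.0273 by edgeR), and 0.66 without iREC F (adjusted p 0.0451 by edgeR). The call was lost without iEC C, D or F or iREC D or E (adjusted p 0.0503 to 0.0648 by edgeR). Of its exon bases, 2.36% are shared with MRPS6 on the same strand.

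SLC5A9, or SGLT4 (chromosome 1, 48222685 to 48248644), is a sodium-coupled carrier known to take mannose and fructose. It had 3, 6, 2 and 0 counts in iEC C to F and 23, 18, 49 and 16 counts in iREC C to F. The groups were well apart, with iREC E the highest. Its log2 fold change of 3.23 ± 0.69 (SE; adjusted p 0.00841 by edgeR) rests on few iEC reads. It was 3.90 without iEC D, which holds most of those reads, and 3.40 without iREC F, and ran from 2.81 to 3.90 over the fits that left out 1 sample. In iREC its level was 0.377 ± 0.193 RPKM (SD, n = 4).

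SLC5A6, or SMVT, carries biotin and pantothenate and was the highest member of its family per length, at 13.4 ± 2.04 RPKM in iEC and 13.7 ± 3.004 RPKM in iREC (SD, n = 4). Its log2 fold change was 0.028, with a 95% interval from -0.37 to 0.43 (adjusted p 0.925 by edgeR). It made up 82.1% to 83.4% of the summed SLC5 level in iEC and 66.8% to 79.6% in iREC. Its exons share 7.37% of their bases with ATRAID on the opposite strand. SLC5A4, or SGLT3, a glucose sensor, was at 7 to 44 counts in iEC and 10 to 36 counts in iREC and was not called (adjusted p 0.848 by edgeR).

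The remaining 7 SLC5 members were below the filter. They are the intestinal and renal glucose carriers SLC5A1 and SLC5A2, the iodide carrier SLC5A5, the choline carrier SLC5A7, SLC5A10, the inositol carrier SLC5A11 and the lactate carrier SLC5A12. SLC5A7 had 0 counts in each iEC sample and 0, 6, 3 and 30 counts in iREC C to F. SLC5A12 had 1, 7, 1 and 4 counts in iEC and 0, 5, 2 and 39 in iREC. Most reads of both genes thus came from iREC F. Whether they go with the high mural and epithelial marker sums of that library was not tested. SLC5A10 had 26 counts in iREC E and at most 7 elsewhere, and its exons share 22.8% of their bases with GRAP on the opposite strand. SLC5A1, SLC5A5 and SLC5A11 had at most 4 counts in any sample and SLC5A2 at most 10, with 31.1% of its exon bases shared with C16orf58 on the opposite strand.

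In the SLC16 family, SLC16A1, SLC16A4 and SLC16A7 rose and SLC16A13 fell. Its neighbour SLC16A11 was called lower close to the threshold (adjusted p 0.0492 by edgeR) and kept the call in only 2 of 14 alternatives. SLC16A7, or MCT2 (chromosome 12, 59596067 to 59789855), has a high affinity for lactate and pyruvate. It was at 11.7, 8.41, 11.9 and 7.94 CPM in iEC C to F and at 40.8, 40.8, 50.3 and 26.6 CPM in iREC C to F. The groups were well apart, and iREC F was the lowest of its group. The means were 9.99 ± 2.10 and 39.6 ± 9.76 CPM (SD, n = 4), which differed by 1.99 ± 0.23 on the log2 scale (SE), or 3.96-fold (adjusted p 0.000378 by edgeR). Over 15 alternatives the log2 fold change ran from 1.85 to 2.13, the latter without iREC F, and the call held in each.

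SLC16A1, or MCT1 (chromosome 1, 112911847 to 112957013), is the monocarboxylate carrier of barrier endothelium. It was at 185, 178, 200 and 155 CPM in iEC C to F and at 351, 315, 348 and 194 CPM in iREC C to F. The iREC samples C, D and E lay far above the iEC samples and iREC F lay within their range. The means were 179 ± 19.0 and 302 ± 73.7 CPM (SD, n = 4), which differed by 0.75 ± 0.19 on the log2 scale (SE; adjusted p 0.0190 by edgeR). Without iREC F the log2 fold change was 0.91 (adjusted p 0.00113 by edgeR), and the call was lost without iREC D or iREC E (adjusted p 0.0534 and 0.0520 by edgeR). Of its exon bases, 3.29% lie in the antisense gene SLC16A1-AS1.

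SLC16A3, or MCT4 (chromosome 17, 82228397 to 82261129), is the low-affinity lactate exporter of glycolytic cells. It was at 140, 124, 161 and 196 CPM in iEC C to F and at 64.7, 68.2, 55.8 and 176 CPM in iREC C to F. The iREC libraries C, D and E lay below the iEC samples, while F lay among them. The log2 fold change of -0.77 ± 0.35 (SE) was not called (adjusted p 0.148 by edgeR). Without iREC F it was -1.30 and called (adjusted p 0.00103 by edgeR). With all samples and the letters as a replicate block it was -0.91 and called (adjusted p 0.0335 by edgeR). Whether the letters pair samples is not known. Of its exon bases, 5.36% lie in CSNK1D on the opposite strand.

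The ratio of SLC16A1 to SLC16A3 in RPKM was 2.23, 2.43, 2.11 and 1.34 in iEC C to F. In iREC it was 9.18, 7.82 and 10.6 in C, D and E and 1.87 in F. The ratio was thus above the iEC range in 3 of the 4 iREC libraries and within it in F. The library lettered F also had the lowest ratio of the iEC group. For SLC16A7, SLC16A4 and SLC16A13, F lay outside the iEC range with the other iREC libraries: SLC16A7 took 2.89% of the summed RPKM of the family in F and 0.836% to 1.34% in iEC. SLC16A1 was the highest member of the family per length in both groups, at 33.8 ± 3.57 and 56.8 ± 13.9 RPKM (SD, n = 4), with SLC16A3 next at 17.2 ± 3.43 and 10.1 ± 6.31 RPKM. The RPKM ranges of these 2 did not overlap in either group. This order depends on the deposited lengths, 5312 bases for SLC16A1 and 8995 for SLC16A3. In CPM, not divided by length, the ranges overlapped in iEC, at 155 to 200 for SLC16A1 and 124 to 196 for SLC16A3. They did not overlap in iREC. The summed level of the family was 66.7 ± 6.03 RPKM in iEC and 80.8 ± 9.62 RPKM in iREC.

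**Figure D3:**
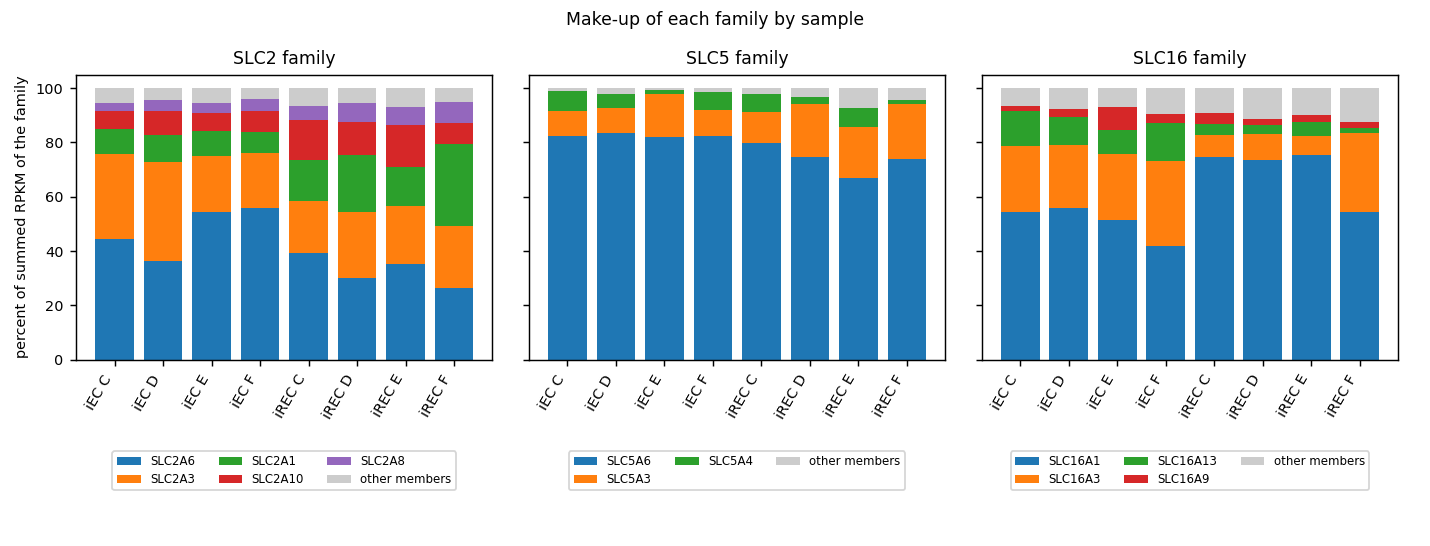
Percent of the summed RPKM of each family taken by each member, by sample; members that reach at least 5% in a sample are named and the rest are grey. SLC16A1 takes 73.7% to 75.3% of its family in iREC C, D and E and 54.2% in iREC F, against 41.9% to 55.9% in iEC.

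SLC16A13 and SLC16A11 lie next to each other on chromosome 17, at 7036075 to 7040121 on the plus strand and 7041630 to 7043923 on the minus strand. SLC16A13, or MCT13, was at 17.2, 12.8, 13.8 and 20.6 CPM in iEC C to F and at 7.26, 5.71, 8.86 and 2.88 CPM in iREC C to F. The groups did not overlap, and iREC F was the lowest. Its log2 fold change was -1.38 ± 0.33 (SE; adjusted p 0.0145 by edgeR), the call held under each of 15 alternatives, and without iREC F it was -1.15. SLC16A11, or MCT11, had 17, 10, 34 and 36 counts in iEC C to F and 5, 11, 9 and 3 counts in iREC C to F. The groups overlapped, and its log2 fold change of -1.75 ± 0.57 (SE; adjusted p 0.0492 by edgeR) was past the threshold in only 2 of 14 alternatives. Without iREC F it was -1.51 (adjusted p 0.0892 by edgeR). Neither gene shares exon bases with another gene in the annotation.

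SLC16A4, or MCT5 (chromosome 1, 110362848 to 110391082), has no well-established substrate. It was at 1.56, 0.695, 1.30 and 0.573 CPM in iEC C to F and at 2.49, 3.07, 3.54 and 4.52 CPM in iREC C to F. All iREC samples lay above the iEC samples. Its log2 fold change was 1.71 ± 0.39 (SE; adjusted p 0.0117 by edgeR), and 1.54 without iREC F.

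Other tested SLC16 members were not called. SLC16A5 was at 3.54 ± 0.947 CPM in iEC and 4.71 ± 1.18 CPM in iREC (SD, n = 4), and SLC16A6 at 1.46 ± 0.734 and 1.96 ± 0.870 CPM. The SLC16A6 counts are uncertain, since 8.42% of its 50-base stretches are also in the pseudogene SLC16A6P1. SLC16A9 was at 12.5 ± 9.84 and 9.995 ± 4.22 CPM, with 26.9 CPM in iEC E against 5.14 to 9.81 CPM in the other iEC samples. SLC16A14 was at 1.26 ± 1.12 and 1.08 ± 0.422 CPM. For none of these 4 did the 95% interval lie within a 2-fold change in both directions.

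SLC16A8, or MCT3, is known from the retinal pigment epithelium. It was at 0.743 ± 0.369 CPM in iEC and 0.702 ± 0.418 CPM in iREC (SD, n = 4; adjusted p 0.933 by edgeR), or 3 to 16 counts per sample. Of 8 markers of that epithelium, 4 were tested, with a median log2 fold change of 1.38. Of these, 2 were called, both higher in iREC, where 25.0% of all tested genes were called and 13.2% were higher. RPE65 and RLBP1 were at most 0.393 CPM and 0.0654 CPM in any sample. The 8 markers summed to 1.90 to 2.67 CPM in iEC and 17.9 to 75.2 CPM in iREC, of which TTR gave 15.0 to 73.0 CPM in iREC. The aromatic amino acid carrier SLC16A10 had at most 13 counts in any sample, in iREC F, and was not tested. The creatine carrier SLC16A12, also below the filter, had 2, 0, 1 and 1 counts in iEC C to F and 0, 18, 9 and 23 counts in iREC C to F.

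**Figure D4:**
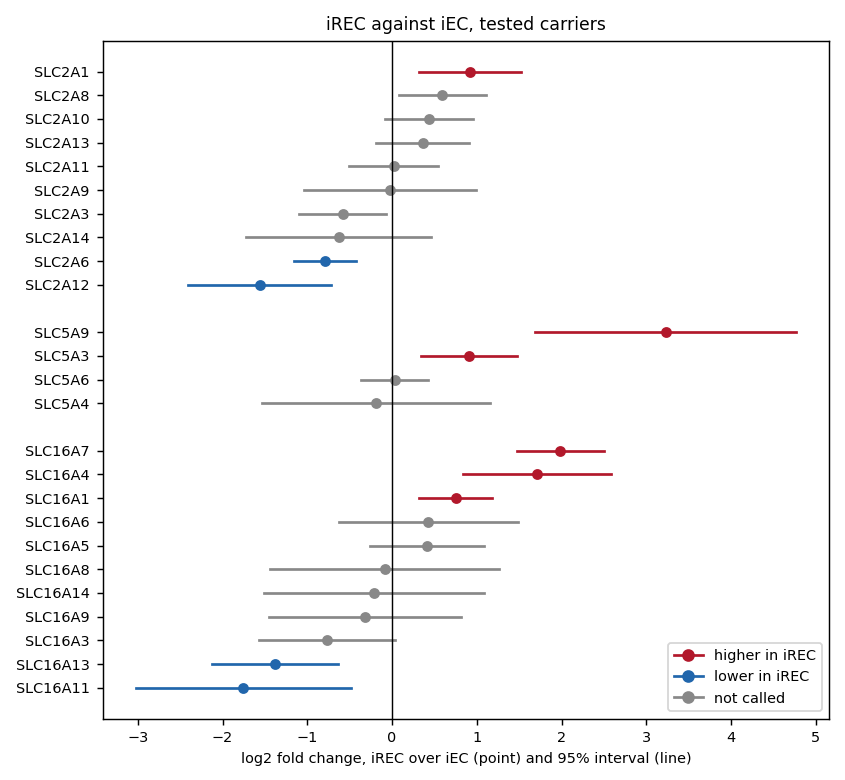
Log2 fold change of iREC over iEC for the tested carriers reported here (point) with its 95% interval (line), by family and size. The 6 red genes were called higher and the 4 blue genes lower in iREC; SLC5A9 has the highest value at 3.23 and SLC16A11 the lowest at -1.75.

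Of 13 tested genes for chaperones and trafficking of the carriers, 3 were called, 2 higher and 1 lower, with a median log2 fold change of 0.070. This count is near the share over all tested genes, of which 25.0% were called. Basigin (BSG), the chaperone of SLC16A1 and SLC16A3, was at 491 ± 91.9 CPM in iEC and 382 ± 41.5 CPM in iREC (SD, n = 4) and was not called (adjusted p 0.120 by edgeR). Embigin (EMB), the partner of SLC16A7, was at 27.3 ± 3.64 and 16.4 ± 6.81 CPM and was not called by edgeR (adjusted p 0.0802). Without iREC F, whose EMB was 25.5 CPM, the log2 fold change was -1.04 in place of -0.74 (adjusted p 0.00958 by edgeR). With all samples it was called by DESeq2 (adjusted p 0.0446) and by limma-voom (adjusted p 0.0462). ARRDC4, an arrestin related to TXNIP that lowers glucose uptake, had 5.39 ± 2.73 CPM in iEC and rose to 54.7 ± 29.9 CPM in iREC (log2 fold change 3.34 ± 0.48, SE; adjusted p 0.00118 by edgeR). TBC1D1, a Rab regulator of SLC2A4 vesicles, rose from 95.7 ± 3.53 to 184 ± 20.2 CPM (adjusted p 0.000380 by edgeR). STX4, a syntaxin of the plasma membrane, fell from 68.3 ± 12.6 to 40.2 ± 7.86 CPM (adjusted p 0.0141 by edgeR).

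Of 11 tested enzymes that receive hexoses and polyols, 3 were called, all lower, with a median log2 fold change of -0.16. Here too the count is near the 25.0% called over all tested genes, where 11.7% were lower. SORD, sorbitol dehydrogenase, fell from 32.3 ± 4.45 to 15.2 ± 2.93 CPM (SD, n = 4; adjusted p 0.00224 by edgeR). The hexokinase HK1 fell from 401 ± 52.1 to 260 ± 44.5 CPM and the aldose reductase AKR1B1 from 133 ± 7.23 to 93.7 ± 14.3 CPM (adjusted p 0.0166 and 0.0193 by edgeR). Both calls were lost without iREC D (adjusted p 0.0595 and 0.0630 by edgeR).

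Of 13 tested genes of lactate, pyruvate and ketone use, 7 were called, 6 higher and 1 lower, with a median log2 fold change of 0.16, where 25.0% of all tested genes were called and 13.2% were higher. PDK4, a kinase that switches off pyruvate dehydrogenase, was at 0 to 0.948 CPM in iEC and 18.4 to 73.1 CPM in iREC (log2 fold change 7.01 ± 0.87, SE; adjusted p 0.000516 by edgeR). Most of its iEC reads were in D, with 0, 15, 1 and 5 counts in iEC C to F, and without D the log2 fold change was 8.33. BDH1, an enzyme of ketone body use, rose from 0.898 ± 0.283 to 5.05 ± 2.29 CPM, and PDHB, a subunit of pyruvate dehydrogenase, from 71.6 ± 5.67 to 130 ± 11.5 CPM (SD, n = 4; adjusted p 0.00308 and 0.000663 by edgeR). The gene that fell was LDHA, lactate dehydrogenase A, from 714 ± 60.03 to 453 ± 127 CPM (adjusted p 0.0380 by edgeR); it was named after its value was seen. Leaving out a sample ended the call in 7 of 8 cases, and the exception was iREC F.

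Of 8 tested genes of inositol and osmolyte handling, 4 were called, 2 higher and 2 lower, with a median log2 fold change of 0.41, where 25.0% of all tested genes were called. IMPA2, an inositol monophosphatase, rose from 0.722 ± 0.506 to 9.15 ± 8.70 CPM (SD, n = 4; adjusted p 0.00703 by edgeR), with 22.1 CPM in iREC F. Its log2 fold change was 3.65, and 2.73 without iREC F (adjusted p 0.00674 by edgeR). IMPA1, also an inositol monophosphatase and the more abundant of the pair, went the other way. It fell from 40.5 ± 7.52 to 28.6 ± 2.14 CPM (adjusted p 0.0395 by edgeR). The inositol phosphate kinase ITPK1 rose from 23.1 ± 2.76 to 67.4 ± 8.91 CPM and IPPK fell from 12.1 ± 0.673 to 6.24 ± 1.23 CPM (adjusted p 0.000123 and 0.00678 by edgeR). Of 11 tested sugar carriers of other families, 2 were called, a smaller share than the 25.0% over all tested genes. SLC37A4, the glucose 6-phosphate carrier of the endoplasmic reticulum, rose from 10.4 ± 2.71 to 21.8 ± 1.79 CPM, and its relative SLC37A2 fell from 6.07 ± 3.44 to 0.666 ± 0.162 CPM (adjusted p 0.00420 and 0.00285 by edgeR).

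The authors' deposited table gives its own log2 fold changes and adjusted p-values. In the authors' deposited table, 12 carriers have an adjusted p under 0.05, and these include the 10 called here, all with the same sign. The other two in the authors' deposited table are SLC5A7 (log2 fold change 5.76, adjusted p 0.00848) and SLC16A12 (log2 fold change 3.67, adjusted p 0.0192), which were below the filter used here.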

How the data were processed

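RNA sequencing measured 8 samples, 4 iEC and 4 iREC. Messenger RNA was captured on poly-T beads and libraries used dUTP in the second strand, per the labels' protocols. The submitters' processing notes name fastp, HISAT2 2.0.5 and hg38. The counting program is not given in the sources used here, so use of the strand is unknown. The authors deposited 1 table of 30386 genes with raw read counts. Per the file headers it also holds normalized signal, FPKM, log2 fold changes and p-values (adjusted p included); the deposited signal and FPKM were not used. All 30386 identifiers and positions equalled GENCODE release 29.

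Counts were filtered with filterByExpr, which left 15330 genes, scaled by TMM and compared by the quasi-likelihood test of edgeR 4.0.16 with group as the only term, using R 4.3.3. Standard errors and 95% intervals come from the fold change, the F statistic and its degrees of freedom. The script was tested on simulated data. RPKM divides CPM by the deposited gene length, and a prior count of 2 entered log2 CPM. DESeq2 1.42.0, limma-voom (limma 3.58.1), other scalings and filters, a replicate block and each sample left out were alternatives. Without molecular identifiers, floors cover counting error only.

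Members are accounted for by family, except that 1 member, which is in the counts, is not reported here. Values in every sample are given for called members and for SLC2A1, SLC2A3, SLC5A3, SLC16A1 and SLC16A3. From each pathway list, up to 3 called genes with the highest absolute log2 fold change and at least 5 CPM in a group are named. BSG, EMB, TXNIP, LDHA and IMPA1 are exceptions to it, picked once their values were known. Members and lists were chosen with earlier results of these data known.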

Additional observations from a re-analysis of the deposited data

Results flagged for a closer look

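In each group of 4 samples, the highest and the lowest log2 CPM were screened for a distance to the next value of over 0.829 of the range. This was done for 52 groups of values, 26 carriers in each of 2 groups, and singled out 3; chance gives about 5% of groups. SLC2A1 was higher in iEC D, at 5.17 log2 CPM, than in the other iEC samples, at 4.75 to 4.81; its log2 fold change without that sample stayed on the same side of the threshold. SLC16A8 was lower in iEC C, at -1.62, than in the others, at 0.021 to 0.18, which is 3 counts against 14 to 15. SLC16A14 was higher in iEC F, at 1.62, than in the others, at -0.36 to -0.071, which is 41 counts against 10 to 13. No cause was tested for any of the 3.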

How the results depend on the processing

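For the 10 called carriers, SLC2A3 and SLC16A3, 12 in all, 176 log2 fold changes were computed under the alternatives; 0 changed sign, 26 lost their call and 3 gained one. SLC16A11 lost its call in 12 of 14. SLC2A6, SLC5A9, SLC16A4, SLC16A7 and SLC16A13 kept theirs in each alternative that tested them. The 10 carriers called became 6 under the stricter filter (1 CPM or more throughout a group, with 50 counts or more on average), which removed SLC2A12, SLC5A9, SLC16A4 and SLC16A11 before testing and left 2 called lower. Without 1 sample there were 5 to 10 called, 3 to 6 of them higher and 2 to 4 lower, the lowest counts being without iREC D. Over all genes, 3829 calls became 2660 to 4214 without 1 sample, 4664 with DESeq2 and 3281 under the stricter filter. With no filter, 11 carriers were called, SLC5A7 and SLC16A12 among them. Deviations from the group means over genes were correlated between samples of the 2 groups. The correlations ran from -0.079 to 0.25 for same-lettered samples and from -0.22 to 0.18 for the others. The highest was that of iEC F with iREC F. With 4 letters these values cannot decide whether the letters pair samples, and the labels do not say. The main fit did not pair them, and the replicate block was an alternative. With the replicate block 8 carriers were called, 4 higher; SLC2A1, SLC5A3 and SLC16A11 were lost and SLC16A3 was gained. For the genes of the pathway lists named here except IMPA1 and TXNIP, 17 in all, 0 of 254 values changed sign, 11 lost their call and 3 gained one. All 3 were for EMB (DESeq2, limma-voom and without iREC F). IMPA1 and TXNIP were not followed under the alternatives. With the replicate block the calls of STX4 (adjusted p 0.0507) and LDHA (adjusted p 0.0653) were lost by edgeR. Members with few counts are limited by depth.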
